A study of Passer montanus with 72 samples.

Results

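The caudal and the rostral hippocampus of male Eurasian tree sparrows (Passer montanus) were compared by RNA sequencing within birds. The libraries are those labelled caudal hippocampus and rostral hippocampus of the 13 birds labelled male, paired by the bird number in the label, which gave 26 of the 72 libraries and 13 of the 24 birds of the study. The birds were wild-caught and held captive, and each gave 1 library from each hippocampal part and 1 from striatum. No genotype, drug treatment or age is given. Both groups come from the same 13 birds and so share sex, origin and housing, and the part sampled is the only labelled difference between them. Whether the handling of tissue or libraries differed by part is not given in the labels. The other 11 birds are labelled female; their 22 hippocampal libraries served as separate birds for the same measure, and the 13 male striatum libraries as a level beside the hippocampal ones. The study's design text names a dorsal where the sample labels name a caudal part; the label's word is used here. The study's title concerns neophobia, the avoidance of new things, but no behaviour is given per bird, so none was compared.

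The hippocampal formation of birds lies along the midline of the dorsal telencephalon and is needed for spatial memory, as in food caching and navigation. Its principal cells are glutamatergic neurons of the pallium, among which GABAergic interneurons are scattered, and the choroid plexus of the ventricle, which secretes cerebrospinal fluid, lies next to it. In mammals the hippocampus differs along its long axis in connections and gene expression, and one pole is more tied to spatial memory and the other to stress and emotion; how the axis of birds relates to this axis is debated.

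Total counts per library were 2905849 to 4461916 (median 3504618) in the caudal part and 3765151 to 5323201 (median 4538385) in the rostral part, and levels are given as CPM, counts scaled to a library total that is the same for all, 1 CPM standing for 2.91 to 5.32 counts. The caudal libraries were thus the shallower ones. The female-specific W chromosome gene CHD1W had 0 to 3 counts in the males and 101 to 205 counts in 10 of the birds labelled female, while bird 260, labelled female, had none. The pallial marker NEUROD2, a transcription factor of glutamatergic neurons, had medians of 57.9 CPM in the caudal and 63.4 CPM in the rostral part against 0.715 CPM in striatum. The striatal markers DRD2 and ISL1 had medians of 1.39 and 0 CPM in the caudal part and 1.89 and 0 CPM in the rostral part, against 112 and 83.1 CPM in striatum. The striatal markers DRD1 and TAC1 had medians of 91.3 and 6.24 CPM in the caudal part, against 684 and 478 CPM in striatum. TAC1 reached at most 105 CPM in a caudal library. Of 12 cerebellar genes found, GABRA6, EN2, PAX2, ATOH1 and PCP2 were at a median of 0 CPM in the caudal part. PCP2 had no count in these libraries. GRM4, CA8, CBLN1 and ZIC1 had caudal medians of 194, 38.8, 33.4 and 17.3 CPM, and striatal ones of 781, 18.8, 43.4 and 48.3 CPM. The hippocampal labels did not conflict with NEUROD2, DRD2, ISL1 and the cerebellar genes at 0 CPM, which were picked from the markers looked up.

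Gene expression differed between the 2 parts across many gene classes, with aromatase and a cochaperone of steroid receptors among the genes higher in the caudal part, opioid and cannabinoid receptors among those lower there, and developmental transcription factors in both directions. Of 8939 genes tested, 2592 (29.0%) passed an adjusted p of 0.05 with edgeR's quasi-likelihood test, 1267 (14.2%) of them higher and 1325 (14.8%) lower in the caudal part. A log2 fold of at least 1 was reached by 310 genes (3.47%), 141 higher and 169 lower. The median log2 fold over all genes tested was 0.00792, and log2 folds are given throughout as caudal minus rostral with standard errors. In 280 genes (3.13%) all 13 birds had the same direction, 111 higher and 169 lower. Numbers of birds higher or lower for a gene were taken from CPM of the library total. The fitted folds used TMM scaling, so a bird with a difference near 0 can have another sign there. In 16 genes (0.179%) the 13 caudal levels did not overlap the 13 rostral ones, 10 of them higher and 6 lower in the caudal part. In bulk tissue, fewer cells of a type and less RNA per cell cannot be told apart, which holds for every level below.

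The level of a choroid plexus gene moved with the comparison. This was TTR, the gene of transthyretin, a carrier of thyroid hormone and of retinol-binding protein that the choroid plexus secretes. Caudal libraries had 1.7, 709 and 2743 CPM (lowest, median and highest), and rostral libraries had 0, 1.22 and 8.62 CPM, a log2 fold of 9.05 ± 0.65 (adjusted p = 2.79e-07). TTR was higher in the caudal part in all 13 birds, and its caudal levels were lowest in birds 8, 261 and 262, whose caudal libraries held 5, 24 and 25 counts; without bird 3 the log2 fold was 9.87. With the mean log2 level of the 16 choroid plexus and ependyma genes found as a covariate, edgeR called 0 of 8939 genes, with 1974 at an unadjusted p under 0.05, and DESeq2 called 320. Only 7 of the 16 genes passed the filter on low counts, and CLIC6 and PIFO had no count. All 16 weighed equally in the covariate. The part explained 79.4% of the variance of that covariate within birds, so that the covariate and the part could hardly be told apart. With TTR left out of the covariate, an alternative chosen after the data had been seen, 1270 genes were called. Of the 175 genes named below by rule that passed the test, 68 passed it again with this covariate in the same direction and 169 kept their direction. The share of the choroid plexus in the comparison was not tested beyond these fits.

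The males differed in how far they shared these differences. Of the 310 genes with a log2 fold of at least 1, bird 8 ran against the common direction in 105, bird 3 in 67 and bird 11 in 59, and the other birds in 4 to 25; the fit that chose these genes included all 13 birds, so these counts are a description. The median correlation of a bird's differences with those of the other birds, across all genes tested, was 0.0306 in bird 3, 0.199 in bird 20, 0.208 in bird 11 and 0.213 in bird 8, and 0.276 to 0.411 in the others. The differences of bird 3 and bird 8 across all genes tested were correlated at -0.354, the lowest of all pairs of birds, against a median of 0.3005. Birds 261 and 262, with caudal TTR of 6.85 and 8.60 CPM, ran against the common direction in 25 and 6 of the 310 genes. Without bird 8, 2403 genes were called, and without birds 3 and 8, an alternative added after the data had been seen, 2877.

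Transcription factors were among the clearest differences. SIX3, a homeobox factor of the anterior forebrain, was at 34.4, 157 and 232 CPM in the caudal part and at 3.28, 11.2 and 25.3 CPM in the rostral part (lowest, median and highest, as in all sentences of this form). Every caudal library lay above every rostral one, with a log2 fold of 3.71 ± 0.34 (adjusted p = 2.94e-06). Bird 8 had the smallest difference, with 34.4 and 25.3 CPM in its caudal and rostral library. NR2F2, an orphan nuclear receptor also called COUP-TFII, was at 427, 1212 and 1453 CPM and at 232, 350.0 and 407 CPM, again without overlap (log2 fold 1.72 ± 0.13, adjusted p = 3.67e-07). Its relative NR2F1 was higher by a smaller amount (0.30 ± 0.07, adjusted p = 0.00596). DACH2 and DACH1, a pair of retinal determination factors, were higher by 3.52 ± 0.49 and 2.05 ± 0.23 (adjusted p = 0.0001 and 1.75e-05), in 12 of 13 birds each. Bird 8 was the exception for DACH2, with 9.87 and 36.7 CPM, where the other caudal libraries had at least 44.8 CPM.

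**Figure D1:**
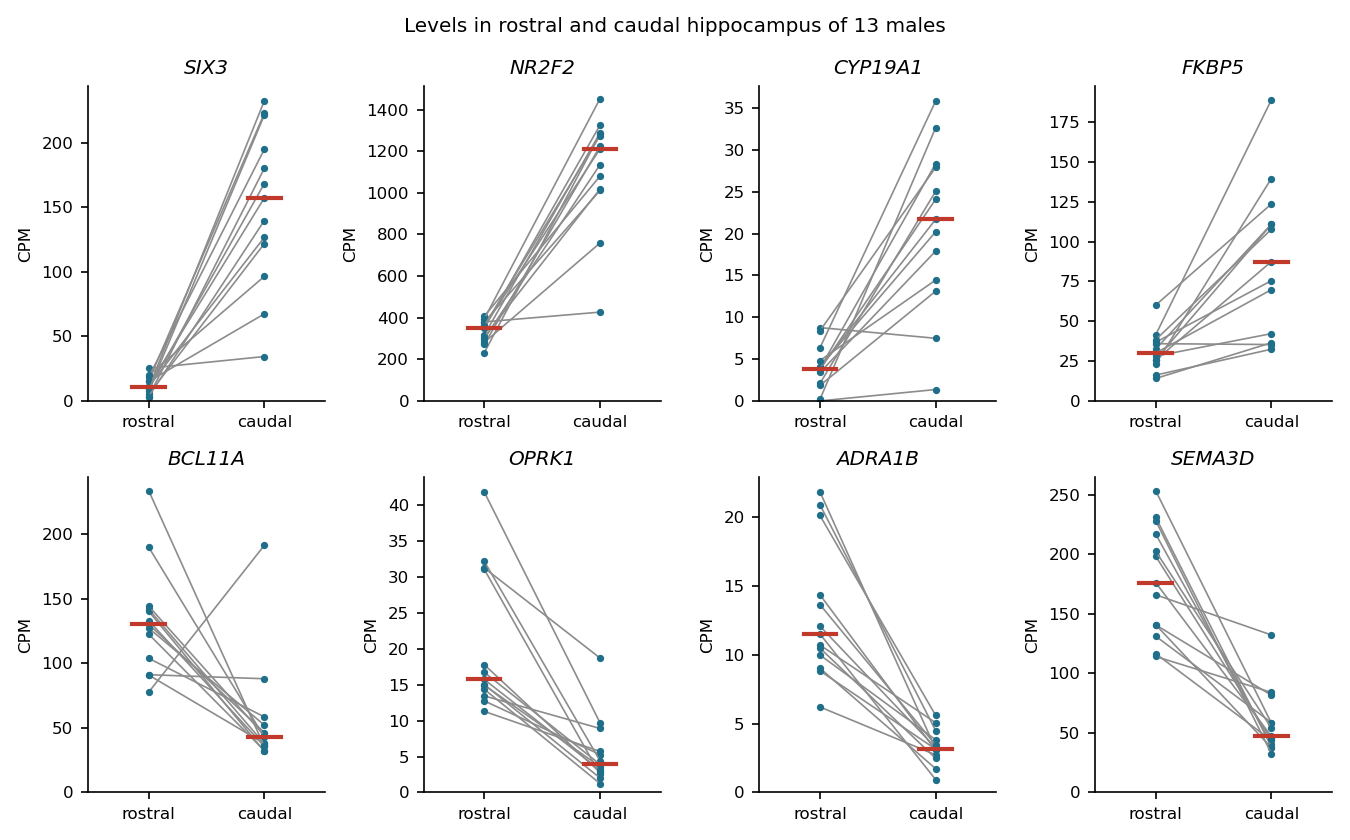
CPM of 8 genes in the rostral and caudal hippocampus of the 13 males, on linear axes from 0; each grey line joins the libraries of a bird and red bars are medians. SIX3, NR2F2 and ADRA1B show no overlap between the parts, whereas BCL11A falls in 12 birds and is higher in the caudal library of bird 8.

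Of 34 hippocampal and dentate factors tested, 14 were higher and 10 lower in the caudal part, with a median log2 fold of 0.14. These shares were 41.2 and 29.4%, beside 14.2 and 14.8% among all genes tested. Besides those above, the factors higher in the caudal part included ZFPM2 (1.76), ID2 (1.08), MEIS2 (0.96), MEIS1 (0.94), PROX1 (0.92) and TOX3 (0.85). PROX1, a marker of dentate granule cells in mammals, was at 19.7, 45.8 and 63.1 CPM in the caudal and 3.82, 24 and 44.1 CPM in the rostral part and was higher by CPM in all 13 birds (0.92 ± 0.22, adjusted p = 0.00546). With TMM scaling the lowest log2 difference of a bird was -0.009. The groups overlapped, and the difference lay within birds. Among the lower factors were BCL11A (-1.40), POU3F2 (-1.13), TSHZ3 (-1.04), TOX (-0.93), NFIX (-0.79), LHX2 (-0.73) and LEF1 (-0.68). BCL11A, a zinc finger factor of projection neurons, was at 31.7, 42.7 and 191 CPM and 77.5, 130.2 and 234 CPM (-1.40 ± 0.25, adjusted p = 0.000708). Its highest caudal level was that of bird 8, the one bird in the opposite direction. PAX6, ZBTB20 and MEF2C were among the 10 that did not pass.

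Pallial glutamatergic genes moved both ways, 7 higher and 7 lower of 26 tested (median -0.11). Higher in the caudal part were NRGN (1.07), CUX1 (0.86), TBR1 (0.75), NPTX2 (0.69), LMO3 (0.61), CAMK2B (0.45) and NRN1 (0.30). TBR1, a T-box factor of early-born cortical neurons, was at 269, 331 and 438 CPM against 139, 193 and 414 CPM (log2 fold 0.75 ± 0.11, adjusted p = 0.000123), and the highest rostral level lay within the caudal range. Among the lower ones were NEUROD6 (-1.23), ETV1 (-0.74), GRIN2B (-0.54), CAMK2A (-0.52), EMX2 (-0.40) and SLC17A6 (-0.32). NEUROD6, a basic helix-loop-helix factor of pyramidal neurons, fell in all 13 birds (-1.23 ± 0.14, adjusted p = 1.54e-05), from a median of 119 to one of 49.0 CPM. NEUROD1, NEUROD2, FEZF2, BDNF and CCK did not pass the test.

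The largest differences among genes with a symbol were spread over several classes. Besides TTR, SIX3 and DACH2, the 12 genes with the largest rise were HS3ST2 (3.24), a heparan sulfate sulfotransferase, UTS2B (3.02), a urotensin-related peptide, ACKR3 (3.00), a scavenging chemokine receptor, CPNE4 (2.88), a copine, SLC13A4 (2.80), a sulfate transporter, KCNH5 (2.71), a potassium channel, FSTL4 (2.60), a follistatin-like protein, CYP19A1 (2.48), aromatase, and SOD3 (2.45), an extracellular superoxide dismutase. CPNE4 was at 51.4, 380.4 and 551 CPM in the caudal and 15.9, 40.3 and 144 CPM in the rostral part, and bird 8 was the one bird with the lower caudal level. The 12 with the largest fall were FANCL (-2.44), HS3ST4 (-2.38), HGF (-2.15), ST8SIA5 (-2.12), NHLH2 (-2.11), WDFY4 (-2.09), EPHA8 (-2.03), OPRK1 (-2.01), SYT13 (-1.98), SLITRK6 (-1.96), ADRA1B (-1.95) and PDE5A (-1.93). HGF, hepatocyte growth factor, was at 0.309, 1.26 and 6.13 CPM and 2.35, 7.31 and 18.9 CPM and fell in all 13 birds. These 24 genes had to pass the test with a mean of at least 1 CPM and the same direction in at least 11 birds, so their size is a description.

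**Figure D2:**
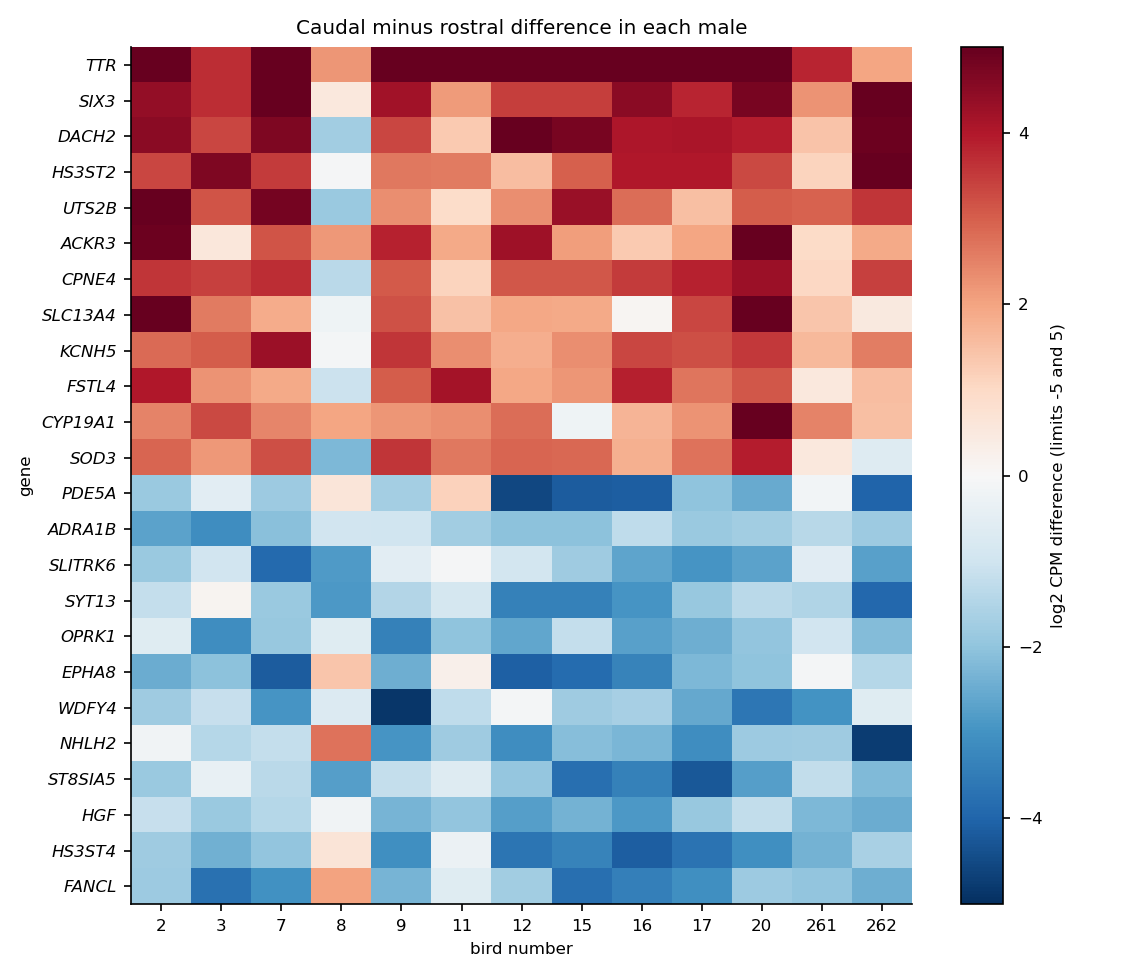
Log2 CPM difference, caudal minus rostral, of the 24 genes with the largest rise or fall (rows) in each of the 13 males (columns); red is higher and blue lower in the caudal part, with colours limited to -5 and 5. Bird 8 is pale or of the opposite colour in many rows, with a difference of -1.73 for DACH2, and ADRA1B is blue in every bird.

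Apart from SIX3, NR2F2 and ADRA1B, the genes whose levels did not overlap included FIGN, RASL10B, KCNH1, FGF9, PLCB1, SYT6, RCAN3, OSBPL1A, TMCC2, SUN1, ROGDI and TENM3; some fall outside the naming rule and were chosen after their values were seen. FIGN, fidgetin, a microtubule-severing enzyme, was at 54.8, 101 and 158 CPM in the caudal and 9.29, 16.7 and 40.1 CPM in the rostral part (2.44 ± 0.23, adjusted p = 2.94e-06). PLCB1, a phospholipase C that follows Gq-coupled receptors, was at 893, 1150.2 and 1579 CPM and 409, 530.1 and 826 CPM (1.05 ± 0.08, adjusted p = 6.59e-07). The differences of the last 3 genes named were small, from -0.40 for ROGDI to 0.64 for SUN1, although their groups did not overlap.

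Genes of sex steroid and corticosteroid signalling gave 4 members higher and 7 lower of 18 tested (median 0.02), and 3 lower without bird 15 or 16 and 4 without bird 12 or 262. With all birds the shares were 22.2% higher and 38.9% lower, beside 14.2 and 14.8% among all genes tested. Aromatase, CYP19A1, which turns androgens into oestrogens and is abundant in the brain of songbirds, was at 1.36, 21.7 and 35.9 CPM in the caudal part against 0, 3.86 and 8.76 CPM (2.48 ± 0.34, adjusted p = 7.1e-05). It was higher in 12 of 13 birds, and bird 15 had 7.49 and 8.76 CPM in its caudal and rostral library. FKBP5, a cochaperone of the glucocorticoid receptor that glucocorticoids induce in mammals, was at 32.4, 87.4 and 189 CPM and 14.1, 30.1 and 60.1 CPM (1.42 ± 0.17, adjusted p = 2.6e-05), with overlapping ranges and almost the same level in both libraries of bird 8, 35.4 and 35.9 CPM. The glucocorticoid receptor NR3C1 did not differ detectably, with medians of 79.4 and 70.3 CPM (0.06 ± 0.12, adjusted p = 0.706). Of other genes that glucocorticoids induce in mammals, TSC22D3, SGK1 and ZBTB16 were lower (-0.27, -0.27 and -0.29), opposite to FKBP5. Receptors for sex steroids were lower where tested: PGR, the progesterone receptor, was at 0, 1.24 and 3.81 CPM and 2.07, 3.85 and 10.4 CPM (-1.80 ± 0.31, adjusted p = 0.000433), and GPER1, a membrane oestrogen receptor, fell by 1.55 on the log2 scale. The oestrogen receptor ESR1 did not pass the filter on low counts, with means of 3.26 CPM in the caudal and 0.667 CPM in the rostral part.

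Opioid and cannabinoid receptors were lower in the caudal part. Of 10 opioid and cannabinoid genes tested 5 fell and 1 rose (median -0.71), and the 5 were the receptors OPRK1 (-2.01), OPRL1 (-1.50), OPRM1 (-1.28), OPRD1 (-1.24) and CNR1 (-1.18). Among all genes tested 14.8% fell and 14.2% rose. OPRK1, the kappa receptor that dynorphins activate, was at 1.24, 3.91 and 18.7 CPM in the caudal and 11.3, 15.7 and 41.8 CPM in the rostral part and was lower in all 13 birds (-2.01 ± 0.25, adjusted p = 2.72e-05). OPRM1, the receptor for beta-endorphin and morphine, was at 6.05, 9.61 and 24.1 CPM and 11.8, 31.3 and 46.5 CPM, also lower in all 13 (-1.28 ± 0.17, adjusted p = 7.43e-05). The ranges of both genes overlapped, and OPRM1 was almost even in bird 3, with 10.5 and 11.8 CPM. CNR1, a presynaptic cannabinoid receptor, was at 60.6, 128 and 257 CPM and 146, 307 and 501 CPM (-1.18 ± 0.18, adjusted p = 0.000249). The peptide gene PENK and the endocannabinoid enzymes DAGLA, DAGLB and NAPEPLD did not pass, and PDYN had at most 1 count per library. 5 members fell in every alternative without a covariate and also with the covariate that leaves out TTR, whereas the 1 that rose, MGLL, which degrades the endocannabinoid 2-AG, was not called without any one of birds 7, 16, 17 and 262.

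**Figure D3:**
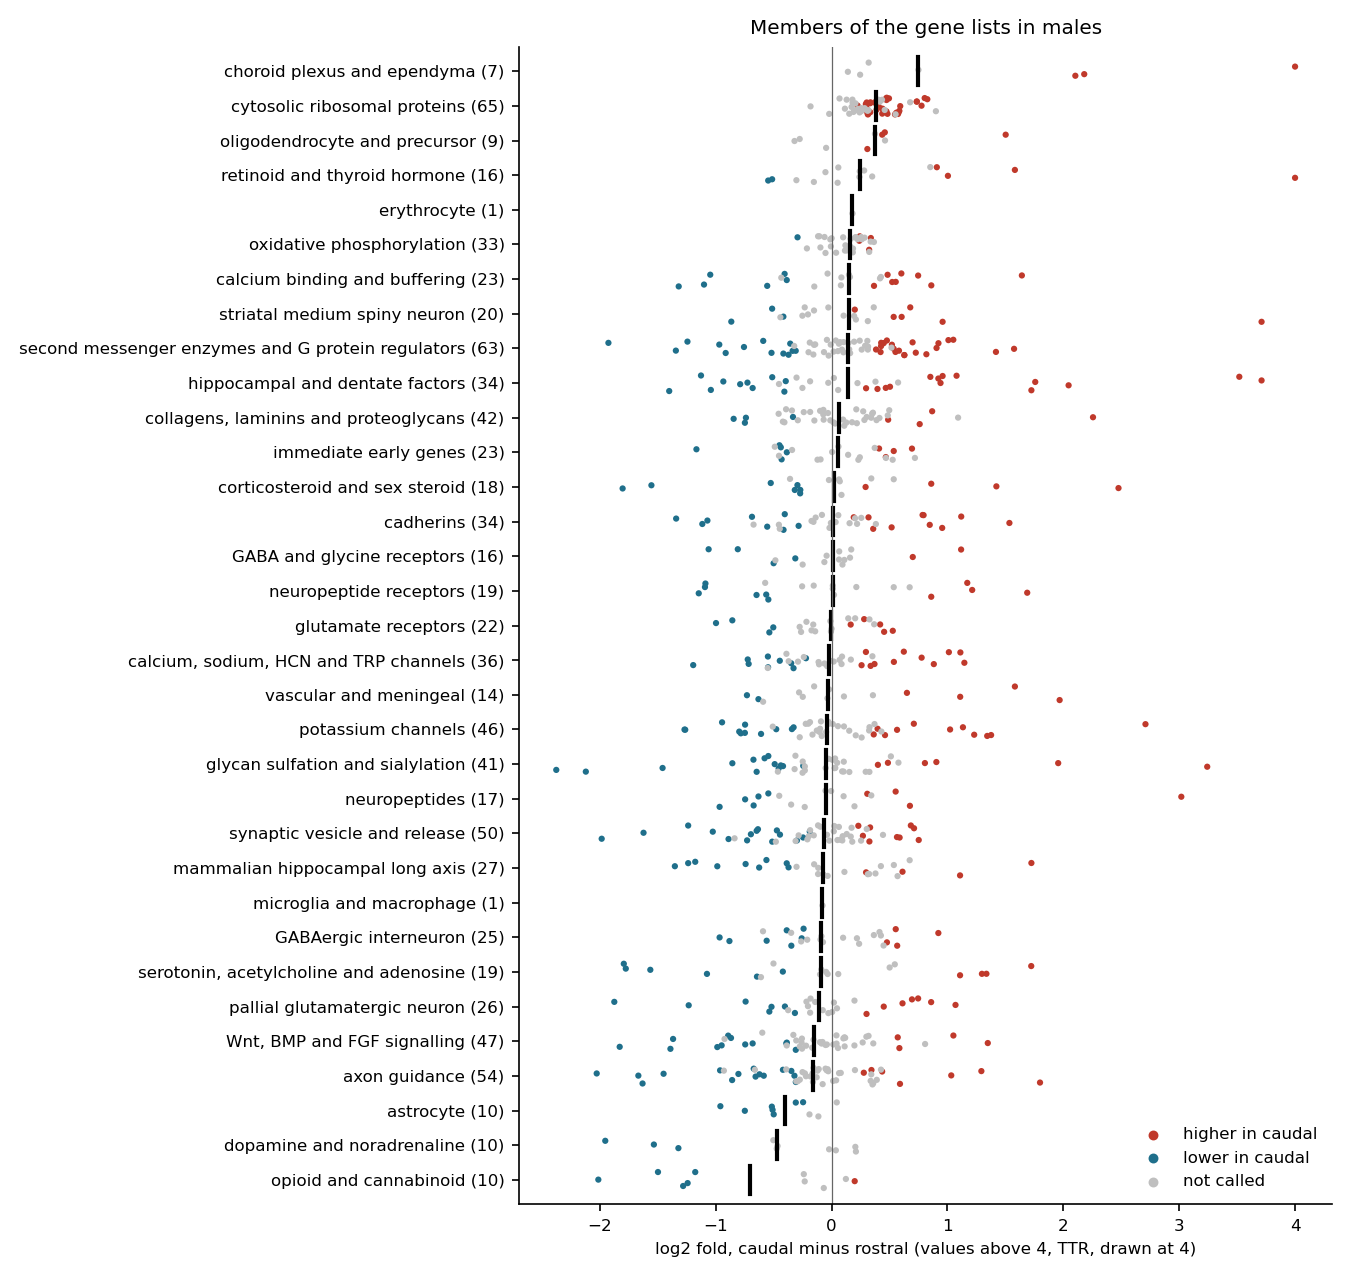
Log2 fold, caudal minus rostral, of each tested member of the 33 gene lists, coloured by whether it was called; the number of members tested is in parentheses and black bars are list medians. The opioid and cannabinoid list has the lowest median (-0.71), and all but 2 of the 65 ribosomal protein genes lie above 0.

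Of 10 dopamine and noradrenaline genes 3 fell and none rose (median -0.47), a share of 30% called against 29.0% among all genes tested, and without bird 3 the number that fell was 5. ADRA1B, a Gq-coupled alpha-1 receptor, was at 0.928, 3.14 and 5.58 CPM against 6.2, 11.5 and 21.8 CPM with no overlap (-1.95 ± 0.19, adjusted p = 5.41e-06). ADRA2A, an alpha-2 receptor, fell by 1.53 on the log2 scale and was lower in 13 of 13 birds. The dopamine receptor gene DRD1 had medians of 91.3 and 75.1 CPM and did not pass (0.21 ± 0.13, adjusted p = 0.215); DRD2 stayed under the filter. Of 19 genes of serotonin, acetylcholine and adenosine signalling 4 rose, CHRM3 (1.72), HTR1F (1.34), ADORA1 (1.30) and HTR1A (1.11), and 6 fell, HTR1E (-1.79), HTR2A (-1.78), CHRM5 (-1.56), HTR4 (-1.08), CHRM4 (-0.64) and HTR1B (-0.42) (median -0.09). Of the muscarinic acetylcholine receptors among these, CHRM3 went from 1.23, 3.65 and 11.7 CPM up to 1.7, 14.9 and 22.6 CPM and CHRM4 from 22.3, 32.8 and 42.9 CPM down to 11.7, 21.2 and 25.3 CPM, and CHRM5 was lower as well. ADORA1, the inhibitory adenosine receptor, was at 7.07, 13.4 and 18.2 CPM in the caudal and 1.98, 3.42 and 18.5 CPM in the rostral part (1.30 ± 0.24, adjusted p = 0.000789). ADORA2A, the stimulatory one, was under the filter, with means of 0.832 and 4.24 CPM.

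Among neuropeptide genes 4 of 17 tested rose, UTS2B (3.02), ADCYAP1 (0.68), CHGB (0.55) and SCG3 (0.31), and 5 fell, NPY (-0.97), SCG2 (-0.75), PCSK2 (-0.67), CPE (-0.63) and PAM (-0.55) (median -0.05). ADCYAP1, the gene of PACAP, a peptide of the stress response, was at 361, 609 and 859.6 CPM and 286, 360.1 and 839 CPM (0.68 ± 0.11, adjusted p = 0.000264), while its receptor gene ADCYAP1R1 fell by 1.09 on the log2 scale. The peptide-processing enzymes PCSK2, CPE and PAM were lower together; PCSK2 was at 179, 229 and 336 CPM and 292, 370.1 and 450.0 CPM and fell in all 13 birds (-0.67 ± 0.08, adjusted p = 1.74e-05). NPY, neuropeptide Y of interneurons, was at 31.6, 62.4 and 127 CPM and 47.8, 114 and 286 CPM (-0.97 ± 0.23, adjusted p = 0.00448), lower in 11 of 13 birds. SST, somatostatin, had medians of 455 and 684 CPM and did not pass (-0.35 ± 0.19, adjusted p = 0.177); it passed without bird 8, at -0.50. Of 19 peptide receptors 4 rose, NPR2 (1.69), NPY2R (1.21), QRFPR (1.17) and CRHR2 (0.86), and 6 fell, SSTR2 (-1.15), ADCYAP1R1 (-1.09), NTSR1 (-1.09), BRS3 (-0.65), NPY1R (-0.56) and VIPR2 (-0.55) (median 0.01). SSTR2, a somatostatin receptor, fell in all 13 birds, from 51, 76.2 and 139 CPM to 23.5, 31.1 and 61.3 CPM (-1.15 ± 0.12, adjusted p = 7.11e-06). The NPY receptors differed in direction, the presynaptic NPY2R being higher (1.21 ± 0.20, adjusted p = 0.000348) and the postsynaptic NPY1R lower.

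GABAergic interneuron genes gave 4 higher, among them PROX1 (0.92), PVALB (0.55) and LAMP5 (0.48), and 7 lower, among them NPY (-0.97), ADARB2 (-0.88), GAD1 (-0.56), CALB1 (-0.39), GAD2 (-0.35) and NXPH1 (-0.24), of 25 tested (median -0.09), and 3 lower without bird 16 or 262 and 4 without bird 2 or 261. PVALB, parvalbumin of fast-spiking cells, was at 313, 458 and 542 CPM in the caudal and 179.8, 291 and 527 CPM in the rostral part (0.55 ± 0.13, adjusted p = 0.00462). Of 16 GABA and glycine receptor subunits 2 rose and 4 fell (median 0.01). GABRD, the delta subunit of extrasynaptic receptors, was at 272, 351 and 539 CPM and 86.2, 162 and 438 CPM (1.12 ± 0.19, adjusted p = 0.000488), while GABRA5, the alpha subunit of another extrasynaptic receptor, fell from 176, 516 and 592 CPM to 111, 220.4 and 474 CPM (-1.06 ± 0.22, adjusted p = 0.00222). Of 22 glutamate receptor subunits 5 rose and 4 fell (median -0.01), 3 rose without any one of birds 7, 16 and 17, and 7 fell without bird 3. GRIA1, the AMPA receptor subunit tied to synaptic plasticity, was at 301, 378 and 567 CPM against 425, 709 and 974 CPM (-0.86 ± 0.12, adjusted p = 0.000122). The NMDA receptor subunits GRIN2A (-0.50) and GRIN2B (-0.54) and the kainate subunit GRIK3 (-0.997) were lower too, and GRIN1 (0.16), GRIA4 (0.42), GRM7 (0.28), GRM4 (0.45) and GRM2 (0.53) were higher.

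Potassium channels split evenly, 11 higher and 11 lower of 46 (median -0.04). Among the higher ones were KCNH5 (2.71), KCNH1 (1.34) and KCNH7 (1.13); KCNH1 was at 26.5, 37.4 and 57.3 CPM against 7.97, 15.3 and 25.1 CPM without overlap (1.34 ± 0.13, adjusted p = 2.94e-06). KCNC1, a channel of fast-spiking neurons, was at 747, 949 and 1129 CPM and 416, 572 and 780.5 CPM, higher in all 13 birds (0.71 ± 0.08, adjusted p = 1.49e-05). The lower ones included KCNA5 (-1.27), KCNG4 (-1.26), KCNQ5 (-0.95), KCNN3 (-0.78), KCND3 (-0.75) and KCNT1 (-0.61). Of 36 calcium, sodium, HCN and TRP channels 11 rose and 9 fell (median -0.03). The T-type calcium channels CACNA1G (0.88) and CACNA1I (0.78) were higher, and the pacemaker channels HCN3 (-0.72) and HCN2 (-0.22) were lower. SCN3B, a sodium channel subunit, fell in all 13 birds, from 102, 122 and 149 CPM to 72.8, 92.4 and 118 CPM (-0.45 ± 0.07, adjusted p = 0.000348).

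Second messenger enzymes and G protein regulators had 21 members higher and 13 lower of 63 (median 0.15). The regulators of G protein signalling were RGS8 (1.57), RGS12 (1.42), RGS6 (1.01), RGS9 (0.54) and RGS7 (0.38) among the higher and RGS20 (-1.34) and RGS4 (-0.76) among the lower. RGS8 was at 11.4, 21.3 and 28.5 CPM and 2.35, 7.64 and 12.4 CPM and was higher in all 13 birds (1.57 ± 0.19, adjusted p = 2.01e-05). The phospholipases PLCB1 (1.05) and PLCB4 (0.70) and the soluble guanylate cyclase subunits GUCY1A1 (0.91) and GUCY1A2 (0.63) were higher. The phosphodiesterases PDE5A, which degrades cyclic GMP, and PDE11A were lower (-1.93 and -0.97). Of calcium-dependent kinases, CAMK2B (0.45) and CAMK4 (0.92) were higher and CAMK2A (-0.52) was lower. Among 23 calcium-binding genes 8 rose and 6 fell (median 0.15). CABP1, which regulates calcium channels, was at 197, 250.5 and 331 CPM and 50, 75 and 203 CPM (1.64 ± 0.15, adjusted p = 2.94e-06), higher in every bird, its caudal minimum lying just under the rostral maximum. SLC8A1, a sodium-calcium exchanger, and ATP2A3, a calcium pump of the endoplasmic reticulum, were lower in every bird (-1.05 ± 0.12 and -1.32 ± 0.18, adjusted p = 1.75e-05 and 7.43e-05).

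Of genes of axon guidance and of developmental signalling, fewer rose than fell. Among all genes tested 14.2% rose and 14.8% fell. The shares were 13 and 27.8% of the guidance genes and 8.51 and 25.5% of the Wnt, BMP and FGF genes, and they are a description. Of 54 guidance genes 7 rose and 15 fell (median -0.16). SEMA3D, a secreted semaphorin, was at 32.6, 47.1 and 132 CPM in the caudal and 114, 176 and 254 CPM in the rostral part, lower in all 13 birds (-1.67 ± 0.20, adjusted p = 1.81e-05), whereas SEMA3F and SEMA3A of the same class were higher (1.80 and 1.03). The Eph receptors EPHA8 (-2.03), EPHB3 (-1.45), EPHA4 (-0.67) and EPHA5 (-0.32) were lower and EPHA3 (0.59) was higher. Of the Slit and Robo pathway, SLIT3 (-0.86) and SLIT1 (-0.59) were lower and the receptor ROBO2 (1.29) was higher. Of 47 genes of Wnt, BMP and FGF signalling 4 rose, WNT10A (1.35), FGF9 (1.05), WNT5A (0.59) and TCF7L2 (0.57), and 12 fell (median -0.16). FGF9, a growth factor that neurons release, was at 40.3, 58.8 and 73.3 CPM against 23.4, 26.5 and 35.7 CPM without overlap (1.05 ± 0.10, adjusted p = 4.13e-06). WIF1, a secreted Wnt inhibitor, was at 10.9, 24.5 and 51.4 CPM and 34.2, 87.1 and 129 CPM (-1.39 ± 0.20, adjusted p = 0.00012). The BMP binding protein BMPER, which is outside this list, was lower in all 13 birds, from 32.4, 47.4 and 76.5 CPM to 17.4, 23.2 and 37.4 CPM (-1.02 ± 0.09, adjusted p = 2.4e-06).

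Cadherins, the calcium-dependent adhesion molecules, gave 10 higher and 8 lower of 34 (median 0.01). Higher were CDH22 (1.53), CDH9 (1.12), CDH12 (0.95) and CDH18 (0.85), and lower were CLSTN2 (-1.34), CDH11 (-1.12), PCDH20 (-1.07), CDH20 (-0.69) and CDH8 (-0.56). CDH11 was at 92.6, 132 and 209 CPM and 181, 300.5 and 403 CPM and fell in every bird (-1.12 ± 0.12, adjusted p = 1.45e-05). Enzymes of glycan sulfation and sialylation gave 6 higher and 13 lower of 41 (median -0.05). HS3ST2 and HS3ST4, which both add the 3-O-sulfate of heparan sulfate, stood at opposite ends: HS3ST2 was at 4.72, 11.9 and 41.7 CPM and 0, 0.764 and 8.01 CPM (3.24 ± 0.46, adjusted p = 0.000102), and HS3ST4 at 1.18, 2.17 and 22.1 CPM and 13.6, 18.2 and 32.2 CPM (-2.38 ± 0.37, adjusted p = 0.000232). The sialyltransferases ST8SIA5 (-2.12) and ST8SIA1 (-0.65), which act on gangliosides, were lower, and ST8SIA4 (0.81), which makes polysialic acid, was higher. Collagens, laminins and proteoglycans gave 4 higher and 4 lower of 42 (median 0.06), with 2 higher without bird 16.

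Synaptic vesicle genes gave 9 higher and 15 lower of 50 (median -0.07). SV2B, a vesicle glycoprotein, was at 10, 24.7 and 85.7 CPM against 36.3, 92.3 and 173 CPM and fell in all 13 birds (-1.62 ± 0.26, adjusted p = 0.000315), and SV2A fell by less (-0.30). The synaptotagmins SYT13 (-1.98), SYT17 (-1.24), SYT6 (-0.89), SYT10 (-0.64) and SYT12 (-0.45) were lower and SYT9 (0.56) was higher. SYT6 had 21.3, 28.2 and 34.6 CPM and 36.2, 52 and 75.6 CPM with no overlap (-0.89 ± 0.12, adjusted p = 8.61e-05). Active zone genes RIMBP2 (0.75), RIMS2 (0.33), UNC13B (0.33) and ERC2 (0.27) and the neurexin NRXN3 (0.68) were higher. Immediate early genes, which neuronal activity induces, gave 4 higher, NPTX2 (0.69), EGR3 (0.54), CCN1 (0.47) and JUN (0.41), and 5 lower, DUSP5 (-1.17), ARC (-0.45), NR4A3 (-0.44), FOSL2 (-0.43) and DUSP6 (-0.39), of 23 (median 0.06), and 3 lower without bird 16 or without bird 17. EGR1 had medians of 186 and 161 CPM and did not pass (0.14 ± 0.08, adjusted p = 0.165), and FOS did not pass either.

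Markers of other cell types also differed. Of 7 choroid plexus and ependyma genes tested 3 rose, TTR, KL (2.18) and AQP1 (2.10), and none fell, while the ependymal genes FOXJ1, TEKT1 and CCDC39 did not pass. OTX2, a defining factor of the choroid plexus, was under the filter, with at most 63 counts in a caudal and at most 2 in a rostral library, and CLIC6 had no count. The summed level of the list was 251, 1290 and 3610 CPM in the caudal and 294, 463 and 590 CPM in the rostral part. Without TTR the sum was 249, 509 and 902 against 293, 462 and 590 CPM and was higher in the caudal part in 7 of 13 birds. The mean log2 level of the 15 genes without TTR weighs each gene equally, those under the filter included. It was higher in the caudal part in 12 of 13 birds, with a median difference of 0.558. Astrocyte genes gave 7 lower and none higher of 10 (median -0.40): AQP4 (-0.96), SLC1A3 (-0.75), SLC4A4 (-0.52), GJA1 (-0.51), SLC1A2 (-0.50), FGFR3 (-0.31) and GLUL (-0.25). That is 70% lower, beside 14.8% among all genes tested. AQP4, the water channel of astrocyte endfeet, was at 21, 45 and 97.6 CPM and 53, 99.4 and 139 CPM and was lower in all 13 birds (-0.96 ± 0.18, adjusted p = 0.000787). The summed astrocyte level was lower in the caudal part in 12 birds, with bird 3 the other way, at 3162, 4147 and 4804 CPM against 3943, 5420.0 and 6922 CPM. Of 9 oligodendrocyte genes 4 rose, among them TF (1.5), UGT8 (0.44) and MBP (0.31), and the summed level was 348, 508 and 1181 CPM against 235, 347 and 554 CPM; TF, transferrin, is made in mammals by the choroid plexus as well. Without birds 3 and 8, 2 members were called higher and 1 lower, and 1 was called lower without bird 3 alone. Vascular and meningeal genes gave TAGLN (1.97), ALDH1A2 (1.58), MYH11 (1.11) and ACTA2 (0.65) higher and CLDN5 (-0.73) and PDGFRB (-0.63) lower of 14, but 2 higher without any one of birds 7, 11, 16, 20 and 261, and 1 lower without any one of 10 birds, all but birds 3, 7 and 11. The single tested members of the erythrocyte and microglia lists, HBAD and CSF1R, did not pass. The part of these cell types in the gene groups above was not tested beyond the fits with the choroid covariates.

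Cytosolic ribosomal protein genes were higher in the caudal part, 37 of 65 tested and none lower, with 63 of 65 log2 folds above 0 and a median of 0.38. The share called higher was 56.9%, beside 14.2% among all genes tested. RPS16 was at 248, 361 and 436 CPM and 190.0, 225 and 316 CPM (0.50 ± 0.08, adjusted p = 0.000319). Together they held 0.847, 1.22 and 1.47% of the caudal counts and 0.709, 0.936 and 1.26% of the rostral counts, and the share was higher in the caudal part in 11 of 13 birds. Counts of these genes are uncertain because near-identical copies can share reads. Across the alternatives without a covariate, 25 to 45 of them were called, and 22 with the covariate that leaves out TTR. The caudal libraries were the shallower, and with each pair thinned to equal totals 33 were called. The part of RNA quality was not tested. Of 33 nuclear genes of oxidative phosphorylation 4 rose and 1 fell (median 0.16), and 1 rose without bird 16 and 2 without any one of birds 8, 12, 15 and 262, while none fell without bird 12 or 262 and 2 fell without bird 3 or 20. Retinoid and thyroid hormone genes gave 4 higher, TTR among them, with ALDH1A2 (1.58), DIO3 (1.00) and RARA (0.91), and THRB (-0.55) and RARB (-0.51) lower, of 16 (median 0.24). RARA, a retinoic acid receptor, was at 90.8, 137 and 204 CPM and 43.8, 80.5 and 117 CPM, higher in all 13 birds (0.91 ± 0.14, adjusted p = 0.000219).

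Genes that mark positions along the long axis of the mammalian hippocampus gave 4 higher, NR2F2 (1.72), HTR1A (1.11), LMO3 (0.61) and NR2F1 (0.30), and 9 lower, WFS1 (-1.35), SYT17 (-1.24), CNR1 (-1.18), RSPO2 (-0.99), ETV1 (-0.74), CPNE7 (-0.63), CPNE2 (-0.56), CALB1 (-0.39) and PDE1A (-0.37), of 27 (median -0.07). WFS1, wolframin, which in rodents marks dorsal CA1, was at 39, 51.6 and 77 CPM in the caudal and 54.6, 152 and 237 CPM in the rostral part and was lower in every bird (-1.35 ± 0.15, adjusted p = 1.16e-05). The groups overlapped because birds 3 and 12 had rostral levels of 54.6 CPM and 57.1 CPM. Without bird 20, 7 members were higher. Among 20 tested genes of medium spiny neurons, the projection neurons of striatum, 6 were higher and 3 lower (median 0.15). They included SIX3 and MEIS2, whose striatal medians were 95.3 and 1361 CPM against 157 and 541 CPM in the caudal hippocampus. The summed level of 14 striatal markers was 136, 212 and 264 CPM in the caudal and 108, 225 and 361 CPM in the rostral part, against a median of 2491 CPM in striatum.

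The same comparison was made in the 11 birds labelled female, which share no library with the males. There 4040 of 8763 genes (46.1%) were called. Of 8696 genes tested in both, 2548 were called in males and 4022 in females, and 1675 in both with the same direction, which is 65.7% of the male and 41.6% of the female calls; 30 were called in opposite directions. Of the male calls 90.8% had the same sign in females. Across genes, which are not independent, the log2 folds of the 2 comparisons had a correlation of 0.642. SIX3 had log2 folds of 3.71 ± 0.34 in males and 2.17 ± 0.28 in females, CYP19A1 2.48 ± 0.34 and 2.85 ± 0.42, NR2F2 1.72 ± 0.13 and 1.33 ± 0.12, OPRM1 -1.28 ± 0.17 and -1.88 ± 0.20, and WFS1 -1.35 ± 0.15 and -1.39 ± 0.17, each called in both. For none of these 5 genes did the difference between the sexes pass, with adjusted p from 0.0668 for SIX3 to 0.96 for WFS1.

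**Figure D4:**
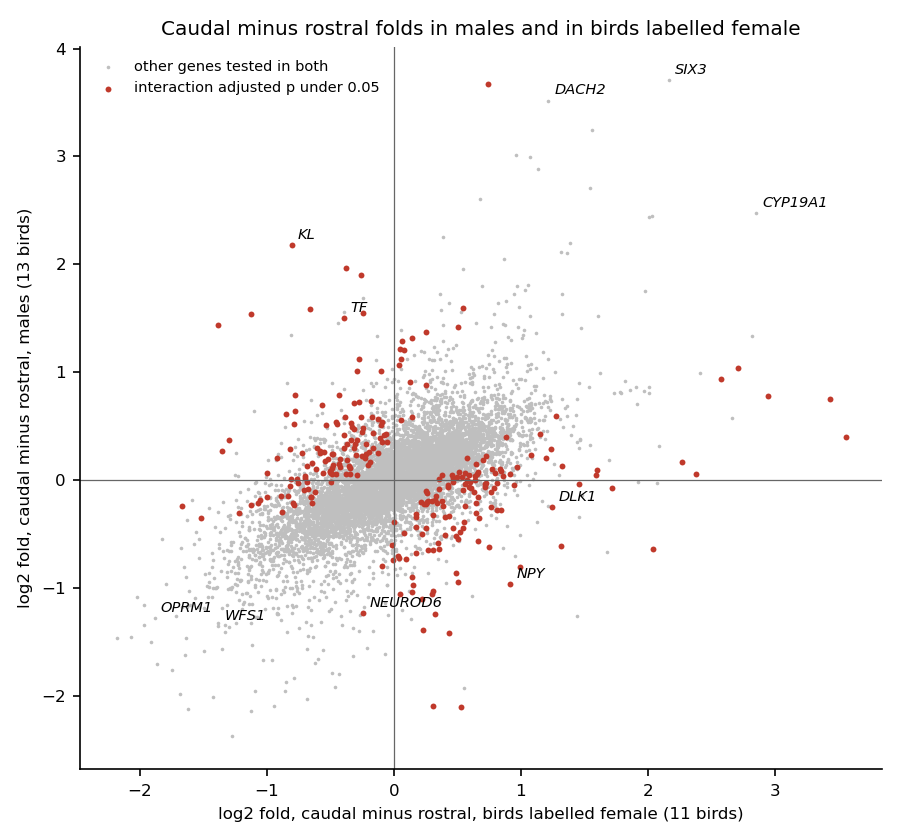
Log2 folds, caudal minus rostral, of the 8696 genes tested in both comparisons, males (vertical) against birds labelled female (horizontal); red points passed the test of the difference between the sexes. SIX3 and CYP19A1 lie in the upper right, OPRM1 and WFS1 in the lower left, and NPY and NEUROD6 among the red points.

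The difference itself was tested as an interaction over the 48 hippocampal libraries, and 266 of 9464 genes (2.81%) passed, with 1906 at an unadjusted p under 0.05. Without bird 260 the count was 153. NPY was lower in the caudal part of males (means of 68.1 and 136 CPM, caudal and rostral) and higher in that of females (98.9 and 60.7 CPM), and the log2 folds differed by -1.89 ± 0.33 (adjusted p = 0.0111). MEF2A, an activity-dependent transcription factor, had means of 258 and 190.3 CPM in males and 207 and 269 CPM in females, a difference of 0.79 ± 0.15 (adjusted p = 0.0138). WIF1 fell in males and had a log2 fold of 0.23 ± 0.20 in females (adjusted p = 0.365), with a difference of -1.63 ± 0.31 (adjusted p = 0.0138). KL, the co-receptor of FGF23, which the choroid plexus makes in mammals, had means of 14.3 and 3.44 CPM in males and 5.22 and 9.09 CPM in females, and differed by 2.98 ± 0.62 (adjusted p = 0.0168). TTR had means of 1029 and 1.58 CPM in males and 17.6 and 0.348 CPM in females, where it was under the filter on low counts. Its log2 folds differed by 3.71 ± 1.80, which did not pass (edgeR interaction, adjusted p = 0.242). KL, TF, ALDH1A2 and TAGLN, which all differed between the sexes (TAGLN not with no replicate block), belong to the choroid, oligodendrocyte and vascular lists, whose part in the difference was not tested.

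How far each male followed the pattern seen in females varied. The 50 genes with the smallest p in each direction in females were taken, a choice that used no male library. In males the mean log2 difference of the 50 genes higher in the caudal part of females ran from -0.41 in bird 3 to 1.23 in bird 8, and that of the 50 lower ones from -1.34 in bird 8 to 0.29 in bird 3. The 12 males other than bird 3 had the direction of the females in both sets. In bird 3, 4 of the 50 and 9 of the 50 genes had that direction, and in birds 8 and 261 all 50 of each.

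**Figure D5:**
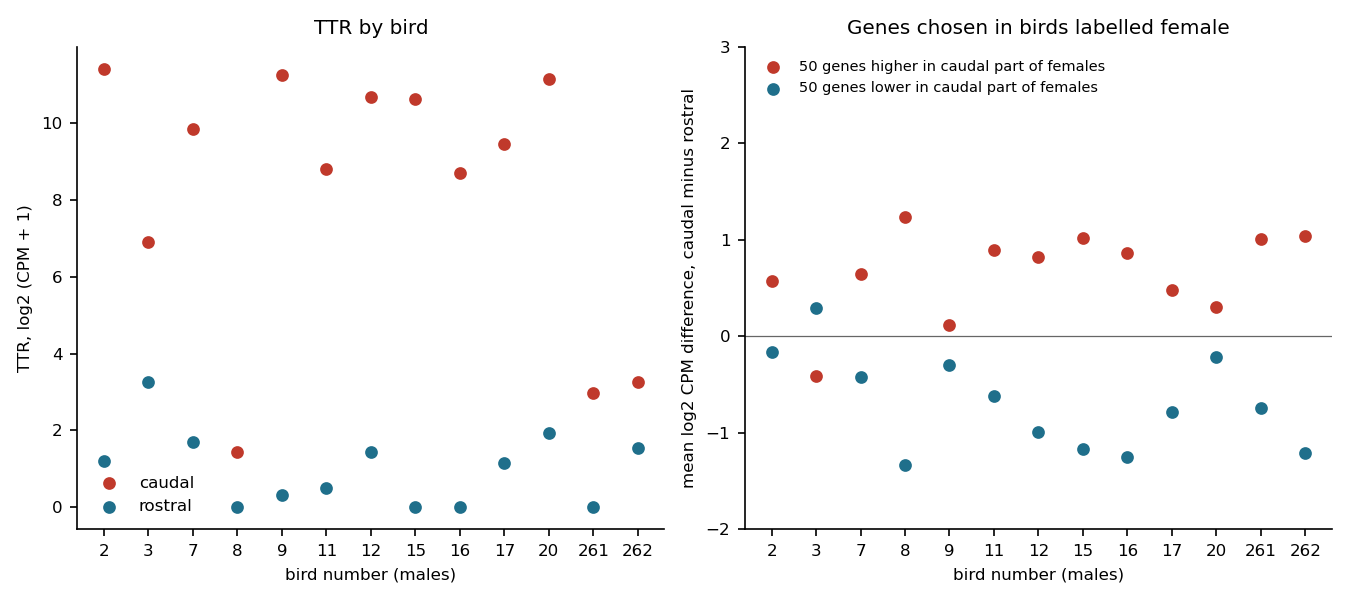
Left, TTR in the caudal and rostral library of each male, as log2 of CPM plus 1. Right, mean log2 CPM difference, caudal minus rostral, of the 50 genes most clearly higher and the 50 most clearly lower in the caudal part of birds labelled female; bird 8 has low caudal TTR and the largest differences (1.23 and -1.34), and bird 3 has the opposite signs.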

How the data were processed

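Counts per gene were analysed from hippocampal libraries of 13 males, with 22 hippocampal libraries of birds labelled female and 13 male striatum libraries beside them. Per the labels' protocols, RNA was purified with a kit for lipid-rich tissue, and a company prepared the libraries. HISAT2 and StringTie were used, per the submitters' processing notes; the genome build, annotation and strand setting were not given in the sources used here, so reads of antisense partners, of overlapping genes or of near-identical copies may have been counted together. The authors deposited whole-number counts for 21957 genes, not normalized. Of its gene identifiers 0 and of its symbols 12265 were in a reference table of Passer montanus. The identifiers are thus not those of that table, and which species' gene set the counts were made on is not given in the sources used here. Effects of counting on the gene set of another species were not tested. The gene positions deposited with the counts were not checked and are not given. Levels of different genes are not compared, except in sums over gene lists and in the share of a gene in such a sum. In 7905 genes none of the 26 libraries had a count.

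Genes were tested with edgeR 4.0.16 in R 4.3.3 (quasi-likelihood test with bird as a block and TMM scaling; genes kept by filterByExpr at minimum count 10 and minimum total 15), with Benjamini-Hochberg adjusted p under 0.05 over all genes tested. Alternatives used DESeq2 1.42.0 and limma 3.58.1. The pairing comes from the same animal in the labels. Deviations of a bird's 2 libraries had a median correlation of 0.158 (-0.116 to 0.456, and over 0.1 in 8 of 13 birds) against -0.00842 between different birds. In 4 of 13 birds the highest correlation was with the library of the same number, so the pairing rests on the labels. Libraries of the same part never agreed within sampling noise: chi-square per degree of freedom was at least 5.58. With bird as a block, p-values rest on how the caudal minus rostral difference varies between birds, not on how levels vary between them. The steps were run on simulated counts with no bird effect and the same part difference in every bird. Those counts therefore do not test how the fits handle birds that differ.

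The comparison, the 33 gene lists (1182 symbols, 1073 in the table, 822 tested) and the naming rule were chosen with earlier results of these data known. Named were the 12 genes per direction with the largest fold (symbol, mean of at least 1 CPM, 11 of 13 birds in 1 direction), up to 3 called members per list and direction by p, 15 fixed receptors, enzymes and peptides, the 6 genes with the smallest p in the interaction and the 6 in males (mean of at least 5 CPM). Further list members are given by their log2 fold. Gene counts per list are descriptions beside 29.0% called among all genes tested. Some genes that the rule or the lists hold are not reported here; counts of list members include them.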

Additional observations from a re-analysis of the deposited data

Results flagged for a closer look

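In 26 of the genes named by rule, the caudal minus rostral difference of males differed from that of birds labelled female by the test of the difference itself (edgeR interaction, adjusted p under 0.05), and the values that follow are male minus female log2 folds, so that a positive value is a larger rise or a smaller fall in the caudal part of males. Positive were SLC13A4 (3.02), KL (2.98), TAGLN (2.34), ALDH1A2 (2.23), TF (1.89), TRPM3 (1.3), ADAMTS15 (1.3), ROBO2 (1.22), NPY2R (1.16), GABRD (1.06), RPH3A (1.02), RGS12 (0.914), GRM2 (0.864), MEF2A (0.789), EGR3 (0.628), NR3C1 (0.555) and ADGRB1 (0.479). SLC13A4 was under the filter on low counts in females, with means of 0.988 and 1.21 CPM in the caudal and rostral part. In males its means were 14.3 and 1.34 CPM, so the female side of its value rests on few counts. Negative were NHLH2 (-2.67), NPY (-1.89), WIF1 (-1.63), DLK1 (-1.5), GABRA5 (-1.36), HPCAL4 (-1.33), SST (-1.03), NEUROD6 (-0.992) and SCG2 (-0.739). DLK1, a Notch ligand that lacks the activating domain, did not pass in males (-0.25 ± 0.16, adjusted p = 0.244) and was higher in the caudal part of females (1.25 ± 0.17, adjusted p = 2.42e-05). ADAMTS15, a protease of the extracellular matrix, was higher in the caudal part of all 13 males, at 6.72, 12.6 and 24.3 CPM against 3.28, 9.02 and 19.3 CPM (lowest, median and highest), and lower in that of females (-0.79 ± 0.21, adjusted p = 0.00544). NR3C1 was lower in the caudal part of females (-0.49 ± 0.09, adjusted p = 0.000349) and so was ADGRB1 (-0.50 ± 0.07 in females, adjusted p = 3.3e-05), and neither passed the test in males. NEUROD6 had a log2 fold of -1.23 ± 0.14 in males and -0.24 ± 0.21 in females.

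Bird 260, labelled female, had no count of the W gene CHD1W. Without it, 20 of the 26 differences passed and GABRD, NEUROD6, NR3C1, RGS12, ROBO2 and SST did not; none changed sign. With no replicate block GABRD, HPCAL4, NHLH2, NR3C1, RPH3A, SCG2 and TAGLN did not pass, and in the fit over all 72 libraries ADAMTS15, GRM2, NEUROD6 and SST did not. Most of these genes were named because of their values in males, so the number of them is no estimate for all genes, of which 2.81% passed.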

How the results depend on the processing

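The count of 2592 genes was 2362 with no replicate block, 2549 to 2627 with other scalings, 2464 and 2597 with other filters, 2988 with DESeq2 and 2647 with limma voom, and 2008 to 3057 when a bird was left out (260 to 370 with a log2 fold of at least 1). With the choroid plexus and ependyma covariate it was 0 (0 with a log2 fold of at least 1), and 1270 with TTR left out of it; the part explained 79.4 and 69.8% of the variance of these covariates within birds. The interaction count of 266 was 153 without bird 260, 648 with DESeq2 and 145 with no replicate block. Of 175 called genes named by rule, 159 were called in every alternative without a covariate that tested them (25, but 18 for SLC13A4 and 23 for NHLH2 and PGR); those lost in at least 1 included MYH11, PDGFRB, UGT8, MGLL, GRM2, GABRB1, NR4A3, COL23A1, NDUFS4, NDUFS3, CYCS, SDHA, NR2F1, NR3C2 and ADAMTS15. Signs turned with the covariate in SLC13A4 (-0.28), FSTL4 (-0.13), PVALB (-0.14), CRHR2 (-0.095), NPR2 (-0.58), GABRA5 (0.048), GPC3 (-0.089) and CHST15 (-0.078). With the covariate and with its version without TTR they turned in SOD3 (-1.11 and -0.12), KL (-1.40 and -0.82), TF (-0.91 and -0.28), NPY (0.37 and 0.14), TRPM3 (-0.33 and -0.20), NR4A3 (0.21 and 0.026), DRD1 (-0.38 and -0.20), NR3C1 (-0.070 and -0.022), SST (0.53 and 0.42) and DLK1 (0.22 and 0.088). ADGRB1, not called, turned with upper quartile scaling (0.0026) and ran from -0.050 to 0.0031 when a bird was left out, with a turned sign without bird 12 (0.0017) or 15. The causes were not tested. At these depths 1 CPM is 3 to 5 counts, which limits genes near the filter.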

Other observations

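Genes that mark brain regions next to the hippocampus were looked up after the data had been seen, and levels are CPM (lowest, median and highest over the 13 males). Of 10 genes of the hypothalamus and preoptic area found in the table, 9 had a median under 1 CPM in both hippocampal parts, among them the peptide genes TRH and GHRH, and HCRT and POMC had medians of 0 CPM. NKX2-1, a homeobox factor that in mammals also marks interneurons born in the medial ganglionic eminence, made up most of the summed level of this list, which was 7.07, 12.0 and 23.2 CPM in the caudal and 2.39, 6.76 and 14.2 CPM in the rostral part. NKX2-1 itself was higher in the caudal part, by 0.93 on the log2 scale (edgeR quasi-likelihood, adjusted p = 0.00624). Of 13 genes of the thalamus, habenula and midbrain 6 had a median under 1 CPM in both parts, and the list summed to 8.85, 12.4 and 23.3 CPM in the caudal and 5.75, 15.1 and 22.7 CPM in the rostral part.

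Cerebellar genes were the list with the highest sums, 229.9, 301 and 384 CPM in the caudal and 146, 244 and 484 CPM in the rostral part, but the male striatum had a median of 856 CPM, and the genes GABRA6, EN2, FAT2 and ATOH1 had medians of 0 CPM in both parts. The genes of these lists named here were chosen after their values were seen. GRM4, a presynaptic glutamate receptor, gave most of this sum. CBLN1, a secreted organiser of synapses, was higher in the caudal part (log2 fold 1.12, adjusted p = 0.000137), and CA8, a carbonic anhydrase-like protein, was lower (log2 fold -0.48, adjusted p = 0.00578).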
